A study of Mus musculus with 12 samples.

Results

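The genes described here are 42 genes of the cell division cycle, 25 that act in mitosis and 17 that act in S phase, when DNA is copied. They were listed by gene name, with no threshold on a measured value, but with earlier results of these data known. Of them, 40 were measured, 23 of the mitosis genes through 46 probes and all 17 S phase genes through 39 probes, out of 19057 genes and 45281 probes on the array. *Mki67* and *Ccnb1* were not analysed here. Whole lungs of 6 newborn mice labelled as cavin-1 knockouts (KO) were compared with whole lungs of 6 newborn wild type (WT) mice. Illumina MouseWG-6 v2.0 BeadChips were used, and each mouse had its own array. On 1 array labelled KO, *Cavin1* was at the WT level, as described further on. Cavin-1 is a coat protein that caveolae, small pits of the plasma membrane, need in order to form. The source of every sample was given as C57/bl6 mouse and the age as newborn, between 0 and 6 h, while the methods of the study allow a longer time after birth. The KO allele carries a lacZ/neo cassette from its targeting vector, and since no Cre and no tissue-specific promoter were named, the loss is not limited to a cell type of the lung. The KO and WT controls were littermates according to the methods, but the labels give neither litters nor sexes. All p-values therefore measure the spread between these 12 mice only.

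Genes of the S phase list load, start or run the replication machinery or make its nucleotides. They are known to be switched on together, before DNA synthesis starts, by factors of the E2F family. Mitosis genes build the spindle, pull chromosomes apart or destroy the cyclins. They are known to be expressed together later, in G2 and mitosis, through the MuvB complex with B-Myb and FoxM1. This complex acts at a promoter element called CHR, and promoters of mitosis genes are also known for CCAAT boxes. The DREAM complex, which holds MuvB too, represses many genes of both lists in resting cells. The newborn lung still grows, so dividing cells are part of the normal tissue. In RNA from a whole lung, fewer dividing cells and less RNA per dividing cell cannot be told apart.

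The promoters of the members with the smallest p in each list, among those with a promoter at hand, are shown because the lists differ in the elements they are known for. RefSeq promoters (mouse build GRCm38.p6, 250 bases before to 50 bases after each start) were at hand for 18 of the 23 mitosis members and 14 of the 17 S phase members, with *Tpx2* not among them. Words of 3 kinds were searched on both strands: CHR as TTTGAA, the CCAAT box as CCAAT, and E2F words as TTTCCCGC, TTTGGCGC, TTTCGCGC or TTTGCCGC. In the stretches printed here, from 200 bases before to 30 bases after the start and written 5′ to 3′ along the strand of the gene, capitals mark every match. The mitosis members are *Ube2c* (chr2:164769729-164769958, plus strand), *Plk1* (chr7:122159235-122159464, plus strand) and *Kif23* (chr9:61946770-61946999, minus strand).
*Ube2c*: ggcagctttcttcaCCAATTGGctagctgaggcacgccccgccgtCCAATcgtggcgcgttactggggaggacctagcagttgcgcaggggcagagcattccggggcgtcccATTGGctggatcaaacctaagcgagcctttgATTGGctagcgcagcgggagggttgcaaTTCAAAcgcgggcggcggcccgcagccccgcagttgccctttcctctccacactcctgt
*Plk1*: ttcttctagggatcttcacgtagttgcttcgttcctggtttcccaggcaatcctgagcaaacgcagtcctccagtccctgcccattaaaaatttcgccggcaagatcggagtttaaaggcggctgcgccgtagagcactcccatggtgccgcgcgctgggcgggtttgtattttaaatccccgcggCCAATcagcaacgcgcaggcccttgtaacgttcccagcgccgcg
*Kif23*: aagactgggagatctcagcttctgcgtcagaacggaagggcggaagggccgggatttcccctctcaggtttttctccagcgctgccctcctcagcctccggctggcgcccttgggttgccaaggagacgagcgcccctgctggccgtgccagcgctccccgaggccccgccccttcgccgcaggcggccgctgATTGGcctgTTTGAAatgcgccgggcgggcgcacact
In *Ube2c* the CCAAT box was found 5 times in this stretch, and the forward match at -186 to -182 overlaps the reverse match at -183 to -179. Its CHR word lies on the reverse strand at -29 to -24. In *Kif23* the CHR word lies at 3 to 8 after the start, and in *Plk1* it lies at 31 to 36, just past the stretch shown.

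The S phase members are *Rrm1* (chr7:102441495-102441724, plus strand), *Ccne1* (chr7:38107461-38107690, minus strand) and *Rrm2* (chr12:24708054-24708283, plus strand). *Mcm3* (chr1:20820283-20820512, minus strand) was added after the matches were seen, since it is the S phase member of smallest p with an E2F word in the stretch shown.
*Rrm1*: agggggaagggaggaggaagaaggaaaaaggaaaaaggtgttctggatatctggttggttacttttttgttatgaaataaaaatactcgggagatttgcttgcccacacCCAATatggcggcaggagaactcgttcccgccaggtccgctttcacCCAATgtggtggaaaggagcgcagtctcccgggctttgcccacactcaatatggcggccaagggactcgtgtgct
*Ccne1*: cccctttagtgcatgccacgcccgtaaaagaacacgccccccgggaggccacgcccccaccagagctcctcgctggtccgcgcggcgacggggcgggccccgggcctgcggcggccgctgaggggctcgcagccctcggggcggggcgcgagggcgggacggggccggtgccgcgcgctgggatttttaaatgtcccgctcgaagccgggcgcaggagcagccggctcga
*Rrm2*: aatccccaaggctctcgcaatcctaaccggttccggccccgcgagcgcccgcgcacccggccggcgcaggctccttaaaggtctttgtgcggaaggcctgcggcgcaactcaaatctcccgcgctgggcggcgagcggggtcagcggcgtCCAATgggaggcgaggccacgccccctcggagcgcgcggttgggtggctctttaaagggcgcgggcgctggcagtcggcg
*Mcm3*: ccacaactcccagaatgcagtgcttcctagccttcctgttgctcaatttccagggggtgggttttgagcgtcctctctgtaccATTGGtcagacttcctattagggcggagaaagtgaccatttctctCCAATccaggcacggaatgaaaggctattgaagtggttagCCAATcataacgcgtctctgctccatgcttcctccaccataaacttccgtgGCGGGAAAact
Shares are of genes with a promoter at hand, and a gene counted when any of its promoters held the word. The CHR word was found for 77.8% of mitosis members (14 of 18), 14.3% of S phase members (2 of 14) and 20.2% of all 27025 genes with a promoter. The CCAAT box was found for 88.9% (16), 64.3% (9) and 41.1%. An E2F word was found for 5.56% (1, *Cdk1*), 42.9% (6: *Cdt1*, *Mcm7*, *Mcm3*, *Mcm6*, *Mcm5* and *Cdc6*) and 2.60%. These are matches of letters, not measured binding.

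*Cavin1*, the targeted gene, averaged 4.44 ± 2.81 in KO lungs and 10.09 ± 0.15 in WT lungs (log2 signal, SD, n = 6 each). On 5 KO arrays it lay between 2.72 and 4.13. On the array titled KO 157, whose description gives the number 159, it was at 10.07, within the WT range of 9.90 to 10.32, so this array is called the library labelled KO 157. Another array, KO 192, stood apart in the cell division genes themselves, as described further on, and in the markers of hepatocytes and of heart muscle. Summed signals of 8 hepatocyte markers were 11455 on KO 192 against at most 1722 on the WT arrays, and those of 5 cardiac markers were 18418 against at most 15181. The 7 skeletal muscle markers summed to 15358 on KO 192, which WT 187 exceeded at 26542. All 10 lung epithelium markers were detected on arrays of both groups, with sums of 93289 to 104929 in KO lungs and 92039 to 106616 in WT lungs. The array median of the bead signal was 97.0 to 121.5, and 45.3% to 49.1% of probes were detected per array.

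None of the 40 members passed an adjusted p of 0.05 in limma between 6 KO and 6 WT lungs, and none was called by SAM or by the methods' t-test after adjustment. Of all 19057 genes, 38 passed in limma (0.199%), SAM called 2 (0.0105%), and the remaining test called 0. With so few genes called, SAM and the remaining test cannot set the members apart from other genes, and nothing is concluded from them. The paper's own SAM called more genes at the same q, a count that was not reproduced here. The 2 lists had different medians, and no test over a list was run. Of the 23 mitosis members, 22 were lower in KO lungs (95.7%), against 51.6% of all genes, and their median log2 fold change was -0.37, against -0.01 over all genes. Of the 17 S phase members, 7 were lower and 10 were higher, with a median of 0.03. An unadjusted p under 0.05 was reached by 8 mitosis members, all lower (34.8%), and by none of the S phase members. At that p, 7.44% of all genes were lower and 6.22% were higher. Not a member of either list had KO and WT values that did not overlap, as did 0.939% of all genes lower in KO lungs and 0.54% higher.

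**Figure D1:**
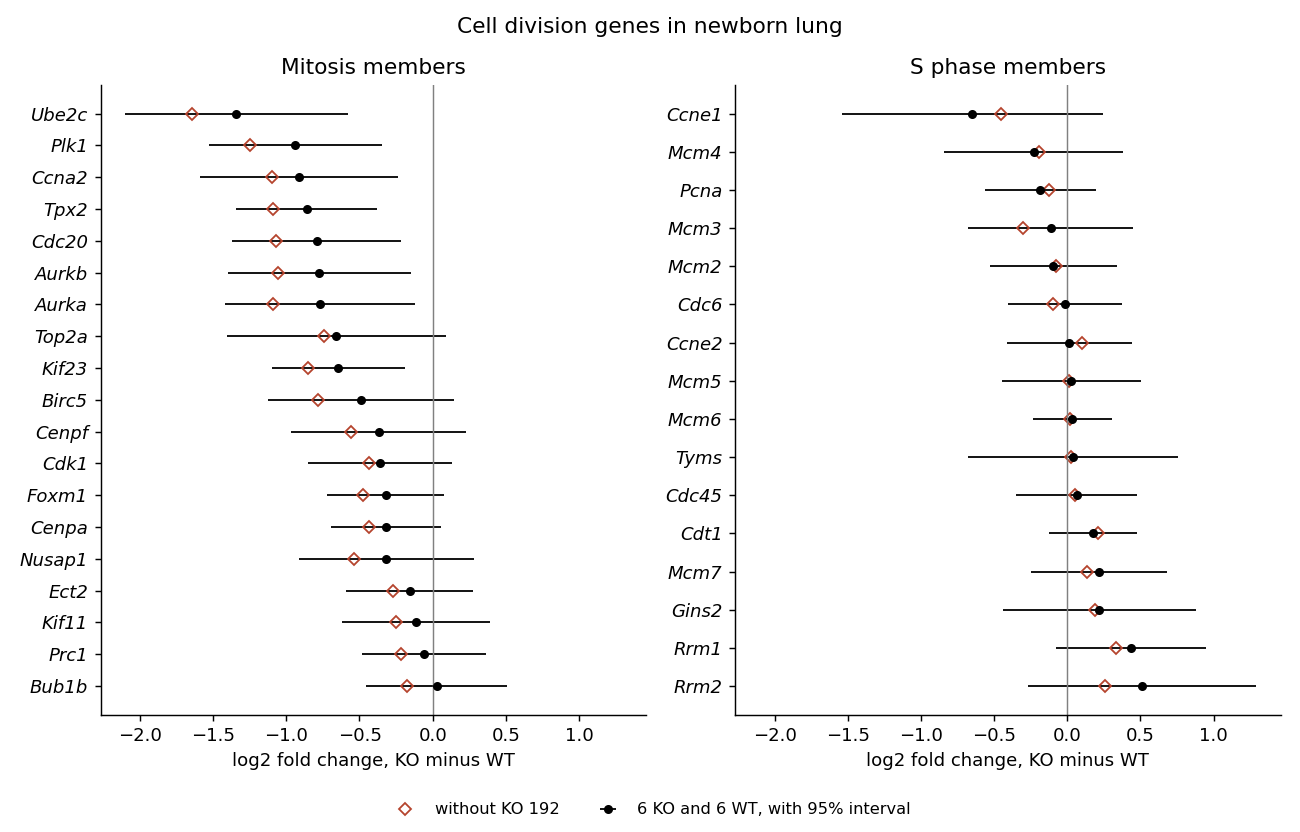
Log2 fold change, KO minus WT, of the 19 mitosis members (left) and 16 S phase members (right) detected on at least 1 KO array, with its 95% interval over 6 KO and 6 WT arrays (black) and its value without KO 192 (open diamonds). The mitosis members lie left of 0 except *Bub1b*, and their diamonds lie further left in all 19, while the S phase members lie on both sides.

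The mitosis members with the smallest p act at several steps, from entry into mitosis to the spindle and the exit from mitosis. *Tpx2*, which activates Aurora A on spindle microtubules, had a lowest, median and highest log2 signal of 5.23, 5.32 and 6.70 in KO lungs, against 6.19, 6.41 and 6.66 in WT lungs. This difference of -0.86 in log2 (SE 0.23, adjusted p = 0.109) was 1.82-fold lower in KO lungs. On 5 KO arrays, none above 5.58, *Tpx2* was below every WT array, and KO 192 was the highest of all 12. *Ube2c*, the E2 enzyme that works with the anaphase-promoting complex to mark cyclins for destruction, was at 3.21, 3.94 and 5.66 in KO lungs, against 4.97, 5.52 and 5.69 in WT lungs. The difference was -1.34 in log2 (SE 0.36, adjusted p = 0.111). The only probe of the gene was detected on 3 KO arrays and on 6 WT arrays, and the size of the difference depended on the processing, with -1.65 to -0.27 over 30 other settings. The KO arrays again split into 5 below the lowest WT array, with 4.77 as the highest of them, and KO 192 inside the WT range. *Plk1*, the kinase that drives entry into mitosis, spindle assembly and cytokinesis, was at 6.23, 6.74 and 8.46 in KO lungs, against 7.66, 7.82 and 8.07 in WT lungs. The difference was -0.94 in log2 (SE 0.28, adjusted p = 0.150). All WT arrays lay in a narrow band, with an SD of 0.15, against 0.81 in KO lungs.

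*Kif23*, the kinesin of the central spindle that cytokinesis needs, was at 7.43, 8.01 and 9.13 in KO lungs, against 8.44, 8.76 and 9.0 in WT lungs (log2 fold change -0.64, SE 0.21, adjusted p = 0.197). The library labelled KO 157 was the lowest and KO 192 the highest of the 12 arrays. *Cdc20*, the activator of the anaphase-promoting complex that the spindle checkpoint holds back, was at 5.48, 6.12 and 7.71 in KO lungs, against 6.90, 7.06 and 7.57 in WT lungs. The difference in log2 signal was -0.79 (SE 0.27, adjusted p = 0.209), and the same 2 KO arrays were at its ends. *Ccna2*, the cyclin that serves both S phase and entry into mitosis, was at 2.71, 3.42 and 4.33 in KO lungs, against 3.30, 4.43 and 4.93 in WT lungs (log2 fold change -0.91, SE 0.32, adjusted p = 0.215). Its groups overlapped more than those of the other 5, with 3 KO arrays below the lowest WT array, and its only probe was detected on 2 KO arrays and 5 WT arrays.

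**Figure D2:**
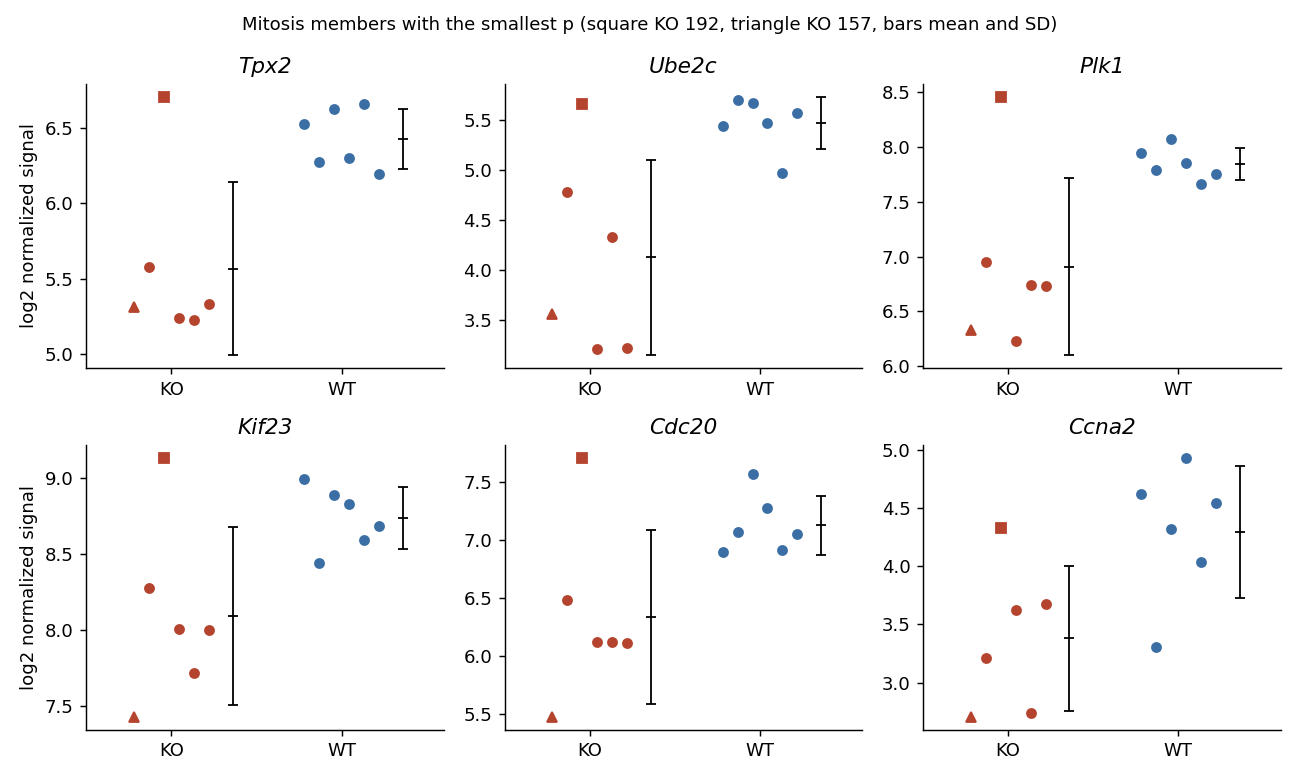
Log2 normalized signal on each array of the 6 mitosis members with the smallest p, KO left of WT, with mean and SD beside the points; the square is KO 192 and the triangle the library labelled KO 157. In *Tpx2*, *Ube2c*, *Plk1*, *Kif23* and *Cdc20*, 5 KO arrays lie below every WT array, and KO 192 lies at or above the WT arrays except in *Ube2c*, where it is within their range.

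*Aurkb*, the kinase of the chromosomal passenger complex that corrects the attachment of chromosomes, and *Aurka*, the kinase of the spindle poles, shared this pattern. *Aurkb* was at 5.36, 6.30 and 7.84 in KO lungs, against 7.02, 7.11 and 7.50 in WT lungs (log2 fold change -0.77, SE 0.29, adjusted p = 0.259). *Aurka* was at 5.79, 6.53 and 8.31 in KO lungs, against 7.31, 7.42 and 7.66 in WT lungs (log2 fold change -0.77, SE 0.31, adjusted p = 0.285). Together with *Foxm1*, the forkhead factor that switches on the mitosis programme, 8 mitosis members had 5 KO arrays below every WT array and KO 192 outside that set. The same 5 KO arrays were below every WT array in 1.71% of all genes. *Foxm1* itself differed less, with 5.35, 5.63 and 6.51 in KO lungs, against 5.84, 6.05 and 6.24 in WT lungs (log2 fold change -0.32, SE 0.19, adjusted p = 0.492).

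Of the remaining mitosis members, some act at the kinetochore and in the spindle checkpoint. The log2 fold change was -0.32 for *Cenpa*, the histone H3 variant of centromeres, -0.37 for *Cenpf*, which joins kinetochores to microtubules, and 0.03 for *Bub1b*, a kinase of the checkpoint that holds back anaphase. *Bub1b* was the only mitosis member higher in KO lungs, and without KO 192 its log2 fold change was -0.17. *Cdk1*, the kinase that starts mitosis, was at -0.36. *Birc5* (survivin), which works beside Aurora B, was at -0.49 and *Top2a*, which untangles sister chromosomes, at -0.66. Among genes of the spindle and of cytokinesis, *Nusap1* was at -0.32, *Ect2* at -0.16, *Kif11* at -0.11 and *Prc1* at -0.06. *Cenpf* was detected on 3 KO and 5 WT arrays, and *Ect2* on 1 KO and 3 WT arrays. No probe of *Bub1*, a checkpoint kinase, or of *Cenpe*, a kinesin of the kinetochore, was detected on an array. *Kif20a*, a kinesin of cytokinesis, and *Ccnb2*, a partner of Cdk1, were detected on no KO array and on 1 WT array each. No fold is given for these 4, whose readings are among the 22 lower ones counted above. The 14 members of this paragraph and *Foxm1* had an unadjusted p of at least 0.0803.

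The number of mitosis members that passed rested on KO 192. This array was the highest KO array in 18 of the 23 and above every WT array in 13. The same counts were not made over all genes. The median over the 23 members of the signal minus the WT mean was 0.42 on KO 192, while it was -0.56 on the library labelled KO 157, -0.26 on KO 186, -0.67 on KO 235, -0.90 on KO 237 and -0.43 on KO 238. On the WT arrays it lay between -0.12 and 0.12, so the 5 other KO arrays lay below all of them. The library labelled KO 157, with *Cavin1* at the WT level, was below the WT mean in 23 of 23 mitosis members. Within KO lungs the median SD of a mitosis member was 0.58, and 0.36 without KO 192, against 0.26 in WT lungs. Over all genes these SDs were 0.35, 0.33 and 0.30.

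**Figure D3:**
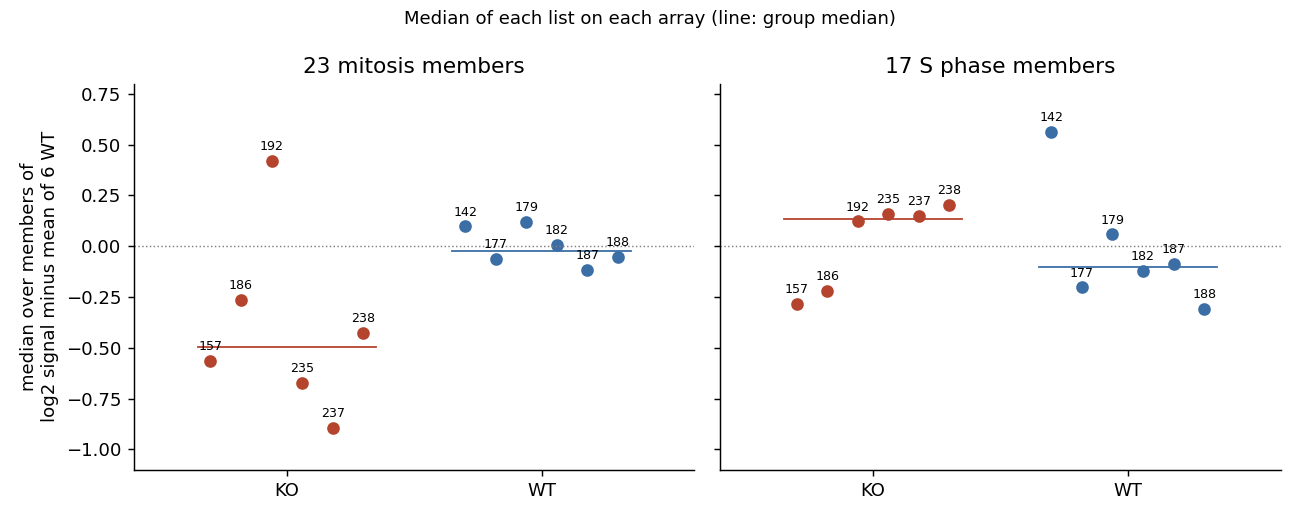
Median over 23 mitosis members (left) and 17 S phase members (right) of the log2 signal minus the mean of the 6 WT arrays, for each array with its animal number, KO left of WT; lines are group medians. For mitosis, 5 KO arrays lie between -0.90 and -0.26 and KO 192 at 0.42, against -0.12 to 0.12 in WT, and for S phase the groups overlap.

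Without KO 192, 7 of the 23 mitosis members passed the adjusted p of 0.05, all of them lower in KO lungs (30.4%). Of all genes 1.18% passed, 0.661% lower and the others higher. *Plk1* fell by 1.25 on the log2 scale (SE 0.14, adjusted p = 0.0031), *Tpx2* by 1.09 (SE 0.15, adjusted p = 0.00821) and *Ube2c* by 1.65 (SE 0.28, adjusted p = 0.0177). *Kif23*, *Cdc20*, *Aurkb* and *Aurka* fell by 0.85, 1.07, 1.06 and 1.09 (adjusted p of 0.0177, 0.0152, 0.0303 and 0.0152). Over 30 other settings the adjusted p of these 7 genes ranged between 0.00262 and 0.665. Read from its brightest probe, *Kif23* did not pass without KO 192. The median log2 fold change of the list without KO 192 was -0.54, 23 of 23 members were lower (51.5% of all genes were), and 8 did not overlap with WT, against 1.71% of all genes lower. None of the S phase members passed. KO 192 was singled out for its values in these same genes, so these counts describe the other 11 arrays and are not a separate test. Without the library labelled KO 157 none of the 40 members passed (0.115% of all genes did), and the medians were -0.32 for mitosis and 0.09 for S phase. Without both, the same 7 mitosis members passed (0.415% of all genes did).

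The animal numbers 192, 235, 237 and 238 lie beyond those of all WT mice, the last 3 furthest. Whether they mark another litter or day is not given. When KO 235, KO 237 and KO 238 were left out, 18 mitosis members were lower, 2 of them at an unadjusted p under 0.05, and the median was -0.13. The share of all genes at that p was not counted in this setting, and with all 12 arrays 7.44% were lower at that p. No member passed the adjusted p of 0.05 in this setting, while 0.189% of all genes did. The 3 KO mice that remained, 157, 186 and 192, include both arrays that stood apart. The hepatocyte and cardiac markers were highest on KO 192 among the KO arrays, with medians of 3.61 and 3.08 above the WT mean, and their part in its mitosis values was not tested. On the library labelled KO 157 both lists were at their lowest among the KO arrays, at -0.73 and -2.16.

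**Figure D4:**
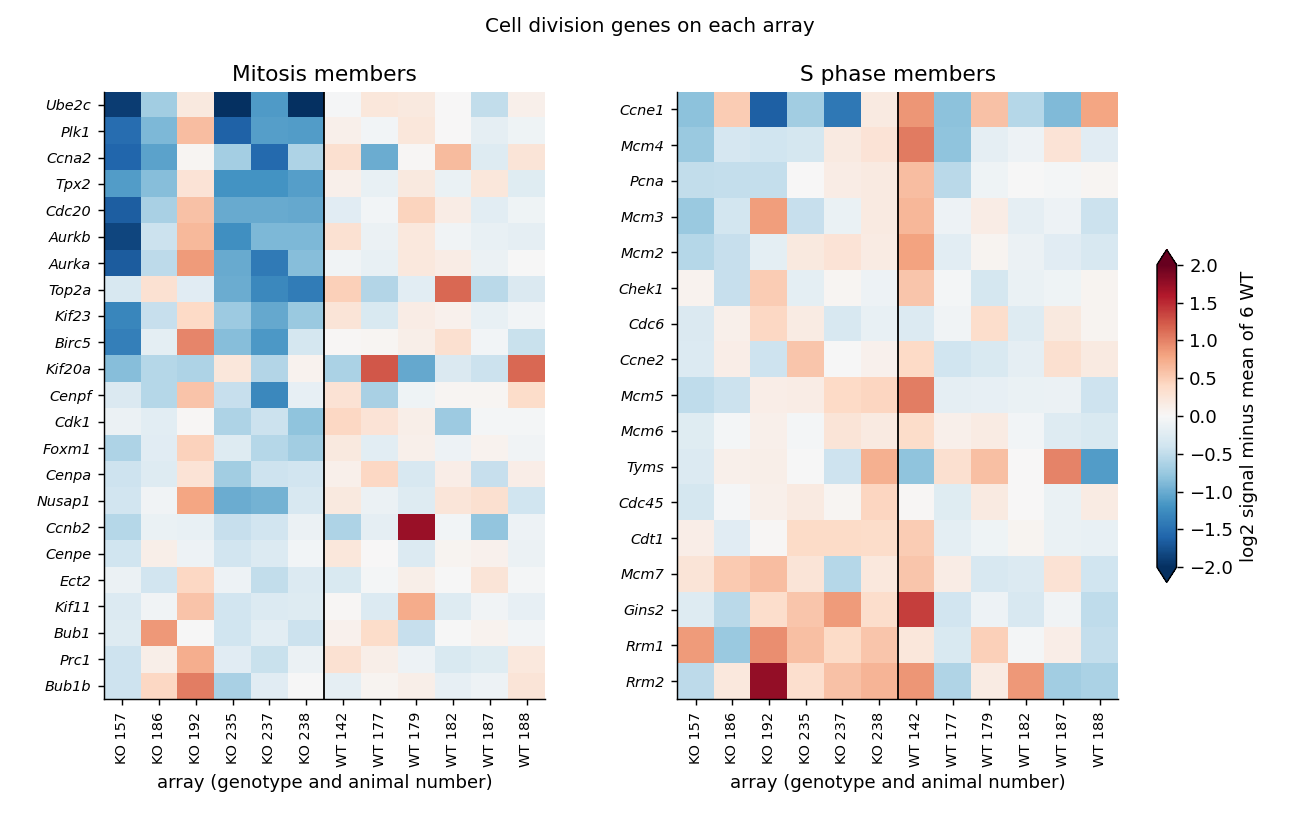
Log2 signal minus the mean of the 6 WT arrays for each member (rows, ordered by fold change) on each array (columns, KO left of WT), with colours limited to the range from -2 to 2. KO 192 stands apart from the other KO arrays in the mitosis members, and WT 142 from the other WT arrays in the S phase members.

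The S phase members were mixed in direction. *Rrm1*, the large subunit of ribonucleotide reductase, which makes deoxynucleotides, had a lowest, median and highest log2 signal of 6.92, 8.25 and 8.60 in KO lungs, against 7.18, 7.71 and 8.13 in WT lungs. Its p was the smallest of the list, at a log2 difference of 0.43 (SE 0.24, adjusted p = 0.460), with 4 KO arrays above every WT array and KO 186 below every one. *Rrm2*, the small subunit of the same enzyme, was at 4.40, 5.38 and 6.68 in KO lungs, against 4.23, 4.71 and 5.81 in WT lungs (log2 fold change 0.51, SE 0.37, adjusted p = 0.590). By these gene values both subunits were higher on average in KO lungs, and neither passed the test. The *Rrm1* value was that of a single probe, while a brighter probe detected on all arrays was at 0.05. *Ccne1*, the cyclin that drives entry into S phase, was at 2.17, 3.05 and 4.32 in KO lungs, against 2.93, 3.81 and 4.69 in WT lungs (log2 fold change -0.65, SE 0.42, adjusted p = 0.541). Its only probe was detected on 2 KO arrays and 3 WT arrays, and the groups overlapped.

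*Cdt1*, which loads the MCM helicase at origins, was at 7.97, 8.44 and 8.58 in KO lungs, against 7.99, 8.08 and 8.70 in WT lungs (log2 fold change 0.18, SE 0.14, adjusted p = 0.632). *Pcna*, the sliding clamp of DNA polymerases, was at 7.62, 7.87 and 8.29 in KO lungs, against 7.58, 8.09 and 8.72 in WT lungs (log2 fold change -0.19, SE 0.18, adjusted p = 0.707). *Mcm7*, a subunit of the MCM helicase, was at 5.18, 6.01 and 6.37 in KO lungs, against 5.36, 5.69 and 6.30 in WT lungs (log2 fold change 0.22, SE 0.22, adjusted p = 0.724). In all 3 the KO and WT ranges largely covered each other, and the 95% interval of the difference was -0.12 to 0.47 for *Cdt1* and -0.57 to 0.19 for *Pcna*.

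**Figure D5:**
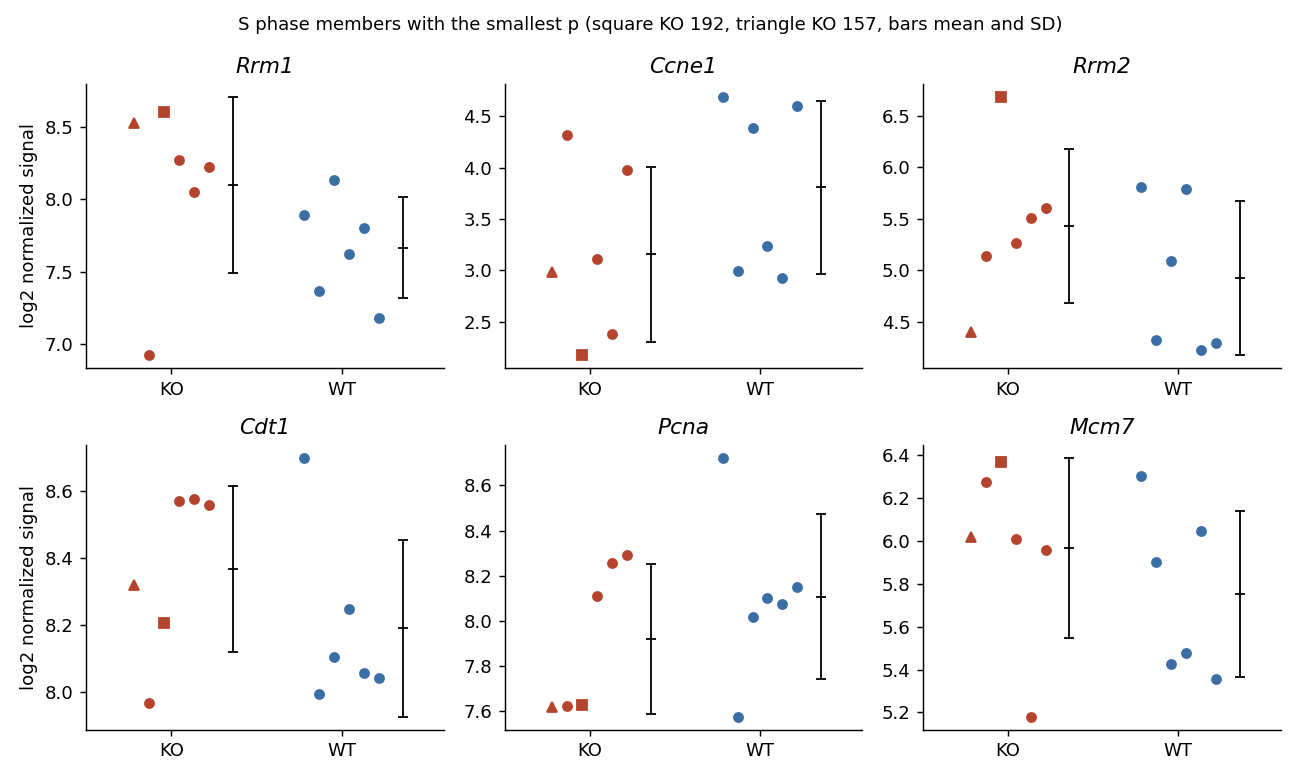
Log2 normalized signal on each array of the 6 S phase members with the smallest p, KO left of WT, with mean and SD beside the points; the square is KO 192 and the triangle the library labelled KO 157. The KO and WT points overlap in all 6, and in *Rrm1* 4 KO arrays lie above every WT array.

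The other subunits of the MCM helicase were at log2 fold changes of -0.23 (*Mcm4*), -0.11 (*Mcm3*), -0.10 (*Mcm2*), 0.03 (*Mcm6*) and 0.03 (*Mcm5*). *Gins2* and *Cdc45*, which join MCM in the active helicase, were at 0.22 and 0.06, and *Cdc6*, which loads it with Cdt1, at -0.015. *Tyms*, which makes thymidylate, was at 0.04, and *Ccne2*, the other cyclin E, at 0.01. No probe of *Chek1*, the kinase of the replication checkpoint, was detected on an array, and no fold is given. The 95% interval of the difference was -0.24 to 0.30 for *Mcm6*, the narrowest of the list, and -0.68 to 0.76 for *Tyms*. A single WT array, WT 142, was the highest of all 12 in 9 of the 17 members. The same count was not made over all genes. The median of the 17 was 0.56 above the WT mean on WT 142 and -0.31 to 0.06 on the other WT arrays, against -0.29 to 0.21 on the KO arrays. WT 142 also had the highest median of the WT arrays in some other lists, such as erythroid precursor markers (0.45) and leukocyte markers (0.25). In others, the mitosis members among them, it did not. Without WT 142 the median log2 fold change of the S phase members was 0.09 and none passed.

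A gene was the median of its probes, and some probes never rose above background, so the members were also read probe by probe. Of the 46 probes of mitosis members, 23 were detected on all 12 arrays, and 22 of these were lower in KO lungs, with a median log2 fold change of -0.56. Of the 39 probes of S phase members, 22 were detected on all 12 arrays, 10 of these were lower, and the median was 0.02. Over all 15304 such probes the median was -0.02 and 53.9% were lower. An unadjusted p under 0.05 was reached by 13 of the 23 mitosis probes, all lower, and by none of the 22 S phase probes, against 11.4% of all such probes that were lower at that p. None of the 85 probes passed the adjusted p of 0.05 with 12 arrays (0.163% of 34885 probes did), while 15 probes of mitosis members, all lower, and none of S phase members passed without KO 192 (0.811% of probes passed lower).

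The probes changed the reading of a few genes. *Prc1*, which bundles the microtubules of the central spindle, was at -0.06 as a gene, but its detected probe was at -0.73 (SE 0.24, adjusted p = 0.170), and its other probe, detected on none of the arrays, read 2.36 ± 0.24 in KO lungs and 1.75 ± 0.50 in WT lungs. *Nusap1*, which binds spindle microtubules near chromosomes, was at -0.58 (SE 0.21, adjusted p = 0.215) for the single probe detected on all arrays. The smallest p among the mitosis probes belonged to a *Kif23* probe, at -0.73 (SE 0.17, adjusted p = 0.0773), while another *Kif23* probe detected on all arrays was at -0.24. The only *Cenpa* probe above background, detected on all arrays, was at -0.39 (SE 0.21, adjusted p = 0.432), and without KO 192 at -0.62 (adjusted p = 0.0360). *Rrm1* had probes that disagreed too, at 0.43 and 0.05 for its 2 detected probes. The gene values of *Cdk1*, *Top2a*, *Mcm4* and *Cdc6* rested mostly on probes detected on few arrays or none. The only probe of each that was detected on all arrays was at -0.27, -0.50, -0.16 and 0.07, in this order. Probes at background also entered the gene values of *Tyms* and *Kif11*. The *Tyms* probes detected on all arrays were at -0.21 and 0.14. The *Kif11* probe detected on all arrays was at -0.26, and at -0.54 without KO 192.

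Other cell cycle genes were read from the same fit, by lists that hold none of the 42. Of 62 other mitosis genes, 47 were lower in KO lungs, with a median log2 fold change of -0.34, and an unadjusted p under 0.05 was reached by 9 that were lower and 1 that was higher. *Ckap2*, a spindle protein, was at -0.92 (SE 0.31, adjusted p = 0.198), *Pttg1*, the securin that holds back separase, at -0.95, *Ncapg*, a condensin subunit, at -0.86, and *Kif2c*, a kinesin that takes microtubules apart, at -0.79. Without KO 192, 5 of the 62 passed, all lower, *Ckap2* and *Kif2c* among them. Of 59 other S phase genes, 33 were lower, the median was -0.03, and none reached an unadjusted p under 0.05. The smallest p were those of *Mcm8*, which was detected on none of the arrays, *Pold3*, a subunit of DNA polymerase delta (-0.18), *Cdc7*, the kinase that fires origins (-0.39), and *Atad2* (-0.31). The 2 wider lists thus gave the same order of medians as the members, on the same 12 arrays.

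Of 12 G1 cyclins, kinases and their factors, 11 were lower in KO lungs, with a median of -0.13. *Ccnd1*, the cyclin that links growth signals to the cycle, was at 10.37, 10.98 and 11.33 in KO lungs, against 11.21, 11.39 and 11.65 in WT lungs (log2 fold change -0.53, SE 0.15, adjusted p = 0.130). Without KO 192 its adjusted p was 0.0462, and over 30 other settings it ranged between 0.031 and 0.251. Of 28 inhibitors and brakes of the cycle, 14 were lower and 14 higher, with a median of 0.00. *Cdkn1a* (p21), which blocks cyclin-dependent kinases, was at 9.45, 10.46 and 11.31 in KO lungs, against 8.71, 9.02 and 9.77 in WT lungs. The gene was higher by 1.29 in log2 (SE 0.29, adjusted p = 0.0818), and by 1.12 without the library labelled KO 157. Without KO 192 it was 1.34 (adjusted p = 0.0481, between 0.0313 and 0.347 over 30 other settings). *Cdkn2c* (p18), an inhibitor of Cdk4 and Cdk6, was at -0.60 (SE 0.24, adjusted p = 0.295), and *Cdk4* itself at -0.21 (SE 0.11, adjusted p = 0.393).

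Markers of the cells that a lung sample can hold moved as follows. Of 8 endothelial markers, 6 were higher in KO lungs with a median log2 fold change of 0.21, led by *Pecam1* (0.44, adjusted p = 0.0873) and *Cldn5* (0.47, adjusted p = 0.094), and their sums were 23385 to 27992 in KO lungs against 21472 to 23830 in WT lungs. Without KO 192, when the 7 mitosis members passed, 3 of the 8 passed too, all higher in KO lungs: *Pecam1* (0.50, adjusted p = 0.0339), *Cldn5* (0.58, adjusted p = 0.0152) and *Tie1* (0.53, adjusted p = 0.0396). Of 10 lung epithelium markers 1 passed, *Scgb1a1*, a secretory protein of club cells, which was lower (-0.50, adjusted p = 0.00821). Of 10 fibroblast and smooth muscle markers, 9 were lower with a median of -0.21, and their sums were 8793 to 11796 in KO lungs against 10563 to 13416 in WT lungs. The sums of 10 leukocyte markers, 27766 to 37347 in KO lungs and 31512 to 39645 in WT lungs, overlapped. Those of 7 erythroid precursor markers, 6767 to 14822 in KO lungs and 7993 to 20659 in WT lungs, overlapped too. Of 11 thymocyte markers, *Rag2*, *Dntt*, *Cd4* and *Cd8a* were detected on no array. Markers of skeletal muscle were higher in KO lungs in 7 of 7, with a median log2 fold change of 2.17, and 4 of them had an unadjusted p under 0.05. Those of hepatocytes were higher in 7 of 8, with a median of 0.97, and 4 had such a p. Without KO 192 these medians were 1.90 and 0.48, with 3 and 2 at such a p. None of either list passed the adjusted p. Of 5 cardiac markers 3 were higher, with a median of 0.01. Sums of hepatocyte markers were 368 to 11455 in KO lungs against 463 to 1722 in WT lungs, those of skeletal muscle markers 747 to 15358 against 631 to 26542, and those of cardiac markers 582 to 18418 against 3335 to 15181. The part of these cell types in the values of the cell division genes was not tested.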

How the data were processed

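RNA of whole lungs of 6 KO and 6 WT newborn mice was hybridised by the authors to Illumina MouseWG-6 v2.0 arrays, 1 per mouse. The intensity values, as deposited, gave the mean bead signal of each probe as GenomeStudio exports it when neither background nor normalization is applied. A detection p-value per probe was deposited with them. A further deposited table of intensity values, processed by the authors, served only as an alternative, with values under 16 set to 16.

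The signals were corrected for background by the RMA convolution, quantile-normalized and converted to log2 (R 4.3.3, limma 3.58.1). Probes were assigned to genes by the platform annotation: 34885 had 1 gene, 18 had several and were left out, and 10378 had none. Genes with several probes took the median of these. KO was set against WT in a limma fit (lmFit, then eBayes with trend), with Benjamini-Hochberg adjustment over all 19057 genes, or over all 34885 probes. A probe was called detected at a detection p under 0.05. Intervals are 95% intervals of the fit. The fit was tested on simulated data.

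The members and the other lists were chosen with earlier results of these data known. Values by sample are given for the 6 members of each list with the smallest p and for members that passed without KO 192. *Aurka*, *Aurkb* and *Foxm1* were given in full after their values were seen. Of other lists up to 4 genes of smallest p were named, plus *Cdkn1a*. Alternatives were other background corrections and normalizations, filters on detection, other merging of probes, other tests, array weights and the omission of arrays. Those that combine the omission of KO 192 with another change were chosen after seeing the data. SAM was written in R with 100 permutations. The labels name no BeadChip, so no block was fitted. The number of arrays limits the precision. Figures were drawn with matplotlib 3.10.9 in Python 3.11.15.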

Additional observations from a re-analysis of the deposited data

Results flagged for a closer look

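In 84 groups of 6 arrays, KO and WT for each of the 40 members and for the median of each list, the highest or lowest array was compared with the nearest of the others, and in 13 groups this gap was a large part of the whole range by Dixon's criterion. Chance flags about 5% of groups, so some of these arise in any such table. Values are log2 signals. Of the 13, 3 were KO 192, high in *Tpx2* (6.70, nearest other KO array 5.58), *Plk1* (8.46, nearest 6.95) and *Kif11* (4.14, nearest 3.51). KO 186 stood apart in *Rrm1* (6.92, nearest 8.05) and in *Bub1* (2.78, nearest 1.90), which is at background, and KO 237 in *Mcm7* (5.18, nearest 5.96). Among the WT arrays, WT 142 was high in the S phase genes *Cdt1* (8.70, nearest 8.25), *Gins2* (6.51, nearest 5.05), *Mcm2* (7.51, nearest 6.76) and *Mcm5* (9.43, nearest 8.29). WT 179 was high in *Ccnb2* (3.72, nearest 1.95) and *Kif11* (4.32, nearest 3.60), and WT 187 was low in *Ube2c* (4.97, nearest 5.44). The library labelled KO 157 was not among them.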

How the results depend on the processing

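The number of mitosis members past the threshold was 0 with all arrays and under 26 of 30 other settings. It was 7 without KO 192 and 0 without any other single array, 7 without KO 157 and KO 192, 10 without KO 192 with each gene read from its brightest probe, and 12 without KO 192 with only probes detected on at least 6 arrays. In the last 2 settings 382 of 19057 genes (2.0%) and 514 of 11599 genes (4.43%) passed. *Kif23*, 1 of the 7, was among the 12 but not among the 10, and its brightest probe was at -0.23 without KO 192. The median log2 fold change of the mitosis members, -0.37 with all arrays, was -0.74 and -0.86 in these settings, over 23 and 18 members, and -0.66 with either detection filter on all arrays. It was smaller in size without background correction (-0.11), with normexp and an offset (-0.14), with the values processed by the authors (-0.20), with neqc (-0.24) and without KO 235, KO 237 and KO 238 (-0.13). Without 1 array at a time it lay between -0.54 and -0.32. The number of mitosis probes past the threshold was between 0 and 15 without 1 array at a time, with 15 only without KO 192. No S phase member passed under any of the 30 settings. Over these settings 15 to 23 mitosis members were lower where 16 to 23 were tested, and 5 to 12 S phase members were lower where 15 to 17 were tested. Of the members with lowest, median and highest values given, *Cdt1* was the only one whose log2 fold change turned, to -0.025 without KO 235, KO 237 and KO 238. Over all members, 6 of 23 mitosis members and 11 of 17 S phase members changed sign in at least 1 setting, *Bub1b* in 10 of 30. The log2 fold change of *Plk1* ranged between -1.25 and -0.55 over these settings, that of *Tpx2* between -1.09 and -0.32, that of *Kif23* between -0.89 and -0.22 and that of *Ccna2* between -1.11 and -0.13. The cause of these differences was not tested. The number of genes past the threshold, 38 with all arrays, was 0 to 224 without 1 array at a time, 93 with array weights, 88 and 106 with the detection filters at p under 0.05 and 0.01, 20 with the values processed by the authors, 6 when arrays were scaled by their medians, 1 without the variance trend, 2 in SAM at q = 0 and 0 in the methods' t-test after adjustment.

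No paired analysis was possible because the KO and WT arrays share no replicate number and the labels name no litter. Probes at background limit what can be read for *Bub1*, *Cenpe*, *Kif20a*, *Ccnb2* and *Chek1*. Such probes also enter the median of other members, among them *Cdk1*, *Top2a*, *Nusap1*, *Prc1*, *Kif11*, *Mcm4*, *Cdc6* and *Tyms*. Depth has no counterpart here other than signal over background, and the arrays number 12.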
